A study of Mus musculus with 7 samples.

Results

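The cell cycle genes described here are 40 transcripts listed by name, all of which were present among the 16272 genes of the deposited matrix. They comprised 13 genes of DNA replication, 25 genes of mitosis and 2 others (Stmn1 and Lockd) that were kept apart from both sets. Whole kidneys of 7 healthy C57BL/6 mice aged 4 to 8 weeks were dissociated and profiled by droplet-based sequencing of transcript 3′ ends, in which each captured molecule is counted once as a UMI (unique molecular identifier). All mice carried the C57BL/6 background and none received a treatment that the labels name. Per the labels, 4 were WT and 3 carried a membrane reporter switched by Cre recombinase, 1 each of the genotypes Cdh16CremTmG (the Cdh16 promoter is active in kidney tubules), SclCremTmG (Scl drives Cre in blood and endothelial lineages) and Nphs2CremTmG (podocytes). The sex of the animals is not given in the sources used here.

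Cells that divide copy their genome in S phase and separate the copies in mitosis. Replication genes encode the helicase that opens the DNA (Mcm2 to Mcm7), the sliding clamp that holds the polymerase (Pcna) and the enzymes that make deoxynucleotides (Tyms, Rrm1, Rrm2, Tk1), and their transcription is driven in late G1 and S phase by E2F factors. Mitosis genes encode cyclins, kinases, kinetochore proteins and spindle proteins. They are transcribed later, in G2 and mitosis, through B-MYB and FOXM1 complexes at promoters that often hold CHR elements and CCAAT boxes. The tubule epithelium of the adult kidney is known for a slow turnover, whereas lymphocytes divide in bursts.

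The matrix held 43745 cells, against 57979 stated in the labels, with the authors' cluster number (1 to 16) for each cell. Each barcode carries a suffix from 1 to 7, and cells with the same suffix form a library here. The labels number the samples too, but no source used here ties those numbers to the suffixes. Libraries 1 to 7 therefore stand for suffixes, form 1 group of kidneys, and were not compared by genotype. Libraries held 1383 to 14136 cells and 4217169 to 49997616 UMIs, with a median of 1630.0 to 3115 UMIs per cell, highest in library 5. Across libraries, 974 barcode sequences were shared, by 1962 cells, of which 21 lay in cluster 9 and 2 in cluster 16. No doublet caller was applied. Nothing says more than that the samples are separate mice, and p-values measure the spread between these 7 libraries.

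The promoters of the members are shown first, because replication and mitosis genes carried different short motifs. RefSeq promoters (GRCm38.p6, 250 bases before to 50 after the transcription start) were found for 11 replication genes (12 promoters, with 2 for Mcm7), 21 mitosis genes and Lockd. Both strands were searched for the CCAAT box (CCAAT), the CHR element (TTTGAA) and the E2F site (TTTCCCGC, TTTCGCGC, TTTGCCGC or TTTGGCGC), and no CCAAT box overlapped a CHR element in a member promoter. The CHR element stood in 16 of the 21 mitosis promoters (76.2%) and in 1 of the 12 replication promoters (8.33%), against 17.9% of all 32851 promoters. The E2F site was in 5 of the 12 replication promoters (41.7%) and in 1 mitosis promoter (4.76%), that of Cdk1, against 2.26% of all promoters. CCAAT boxes were in 10 of 12 replication (83.3%) and 18 of 21 mitosis promoters (85.7%), against 37.4%. A match is a description of the letters and not of binding.

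Below are the 250 bases before the start for 3 mitosis genes and 2 replication genes whose levels are described further on. The mitosis genes were chosen for holding a CHR element. The replication genes were chosen for holding an E2F site, which only 5 of the 12 replication promoters had. Capitals mark CCAAT boxes, CHR elements and E2F sites on either strand (a motif of the other strand appears as its reverse complement), and adjoining motifs run together.
Ube2c, chr2:164769679-164769928, plus strand: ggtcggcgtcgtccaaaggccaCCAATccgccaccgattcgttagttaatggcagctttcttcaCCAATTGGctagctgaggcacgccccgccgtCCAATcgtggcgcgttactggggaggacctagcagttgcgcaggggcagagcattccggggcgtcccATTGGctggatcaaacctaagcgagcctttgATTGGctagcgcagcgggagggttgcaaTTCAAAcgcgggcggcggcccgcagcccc
Ccnb2, chr9:70421555-70421804, minus strand: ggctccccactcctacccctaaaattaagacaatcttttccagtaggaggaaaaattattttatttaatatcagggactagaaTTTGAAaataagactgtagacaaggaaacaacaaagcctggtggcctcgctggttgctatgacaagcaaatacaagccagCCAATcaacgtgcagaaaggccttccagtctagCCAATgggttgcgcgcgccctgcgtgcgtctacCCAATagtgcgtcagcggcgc
Mki67, chr7:135716380-135716629, minus strand: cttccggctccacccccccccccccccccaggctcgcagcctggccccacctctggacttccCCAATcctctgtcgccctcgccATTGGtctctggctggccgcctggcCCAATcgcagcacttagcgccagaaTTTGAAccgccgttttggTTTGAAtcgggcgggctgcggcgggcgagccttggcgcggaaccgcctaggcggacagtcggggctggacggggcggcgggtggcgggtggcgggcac
Mcm5, chr8:75109259-75109508, plus strand: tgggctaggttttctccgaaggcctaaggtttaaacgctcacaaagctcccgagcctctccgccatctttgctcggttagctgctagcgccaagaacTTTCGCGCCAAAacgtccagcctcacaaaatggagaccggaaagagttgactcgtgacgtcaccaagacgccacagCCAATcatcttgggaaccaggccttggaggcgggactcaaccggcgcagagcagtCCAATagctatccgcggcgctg
Mcm6, chr1:128359706-128359955, minus strand: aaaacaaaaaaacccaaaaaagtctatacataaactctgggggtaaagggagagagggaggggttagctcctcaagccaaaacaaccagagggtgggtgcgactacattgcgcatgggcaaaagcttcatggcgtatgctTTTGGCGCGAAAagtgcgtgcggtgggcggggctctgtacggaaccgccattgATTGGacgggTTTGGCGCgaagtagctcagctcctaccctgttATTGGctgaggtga
In these stretches, the CHR element of Ube2c starts 29 bases before the transcription start, that of Ccnb2 167 bases and those of Mki67 116 and 98 bases before it. The whole promoter searched for Ccnb2 holds 2 CHR elements, of which 1 lies within the stretch shown. The E2F sites of Mcm5 begin 153 and 149 bases before the start and overlap each other, and Mcm6 has sites at 110, 106 and 47 bases. CCAAT boxes stood in all 5 of these stretches, 6 of them in Ube2c and 2 in each of the Mcm stretches.

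Across clusters, the 40 genes were concentrated in clusters 9 and 16. Levels are given as CPM, the UMIs of a gene for every 1000000 UMIs that a library's cells in that cluster held, averaged over libraries with at least 5 cells there. UMIs count molecules and carry no length term. The highest mean level was in cluster 16 for 32 of the 40 genes and in cluster 9 for the other 8 (Pcna, Tk1, Mki67, Cdca3, Cenpf, Hmmr, Anln and Lockd). Both clusters took the top places for 36 of 40 genes. The exceptions were Mcm3, Mcm4, Mcm7 and Hist1h2ap, each highest in cluster 16 and followed by a lymphocyte cluster (cluster 15, 14, 13 and 13, respectively). Clusters were set by the authors on these same counts, so that all levels by cluster are descriptions without a test.

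**Figure D1:**
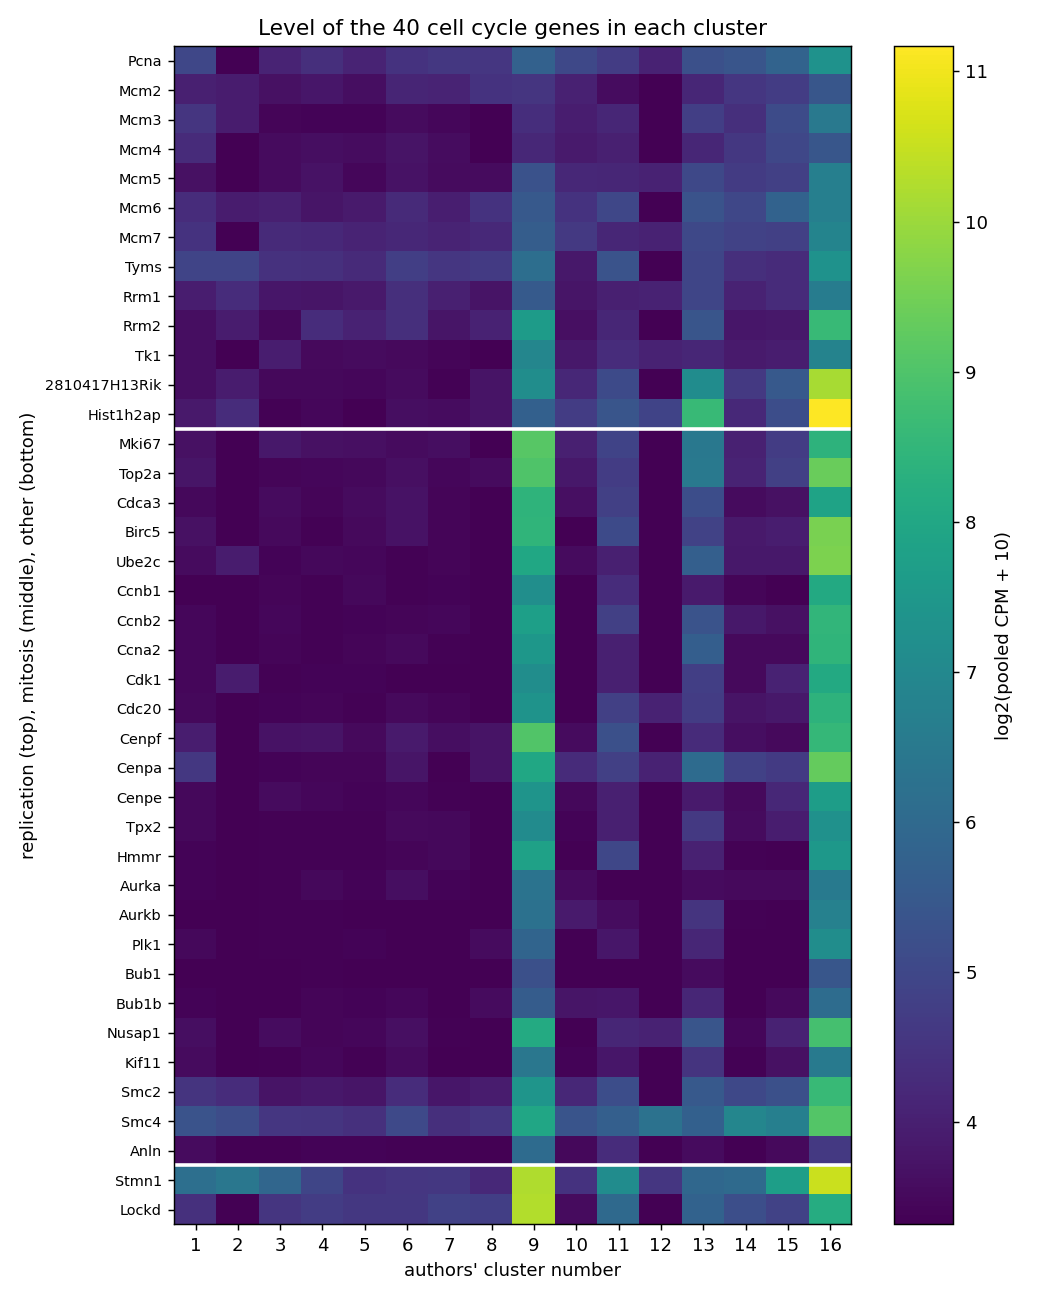
Level of each of the 40 cell cycle genes (rows, replication above, mitosis in the middle, Stmn1 and Lockd below) in the authors' 16 clusters (columns), as log2 of the CPM pooled over libraries plus 10. Columns 9 and 16 are bright in nearly every row, and column 13 is next among the mitosis genes.

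Cluster 9 held 601 cells and cluster 16 held 42. In cluster 9, 518 cells carried UMIs of at least 3 proximal tubule markers with at most 1 marker of any other type. A further 33 passed the same kind of rule for the distal convoluted tubule (at least 2 markers, proximal markers ignored), and 34 passed none. The 10 proximal markers (such as Slc34a1 and Lrp2) summed to 4529 ± 777 CPM in cluster 9 (SD, n = 4), against 10178 ± 1164 in the proximal tubule-like cluster 3 (n = 7), and T/NK markers (such as Cd3d and Nkg7) had 2 UMIs in all its cells. In cluster 16, 34 cells were T/NK-marker cells, none was a proximal-marker cell and 7 passed no rule. T/NK markers summed to 4037 ± 659 CPM there (SD, n = 3), against 3017 ± 640.2 in cluster 14 and 5420 ± 763 in cluster 15, both T/NK-like (n = 7), and proximal markers to 731 ± 375 CPM. The top 10 genes by fold in both clusters included members (Lockd, Mki67, Cenpf, Cdca3 and Hmmr in cluster 9, and Hist1h2ap, 2810417H13Rik, Ube2c, Birc5 and Cenpa in cluster 16), so the clusters are named by number.

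The cells of cluster 9 came mostly from a single library. Libraries 1 to 7 gave 9, 28, 2, 3, 552, 6 and 1 of its cells, so that 91.8% were from library 5, and they gave 1, 7, 0, 3, 18, 13 and 0 of the cells of cluster 16. Cluster 9 made up 0.727% of a library's cells on average over the 7 libraries and 0.197% without library 5. Median UMIs per cell were 3689 in cluster 9 and 5703 in cluster 16, against 2281 in cluster 3 and 1875 in cluster 14. The part of doublets or of cell size in these depths was not tested.

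Summed over the 25 mitosis genes, cluster 9 reached 2910.0 CPM in library 1, 4010.3 in library 2, 5176 in library 5 and 3523 in library 6. Cluster 16 reached 7005 in library 2, 8658 in library 5 and 6040 in library 6. All 3 libraries of cluster 16 lay above all 4 of cluster 9, at 7234 ± 1324 against 3905 ± 959.7 CPM (mean ± SD). The same sum was 33.9 ± 9.98 in cluster 3 (n = 7), 27.9 ± 6.89 in the distal convoluted tubule-like cluster 5 and 49.7 ± 7.09 in the podocyte-like cluster 2 (n = 4). Among the other clusters the highest mean was that of the B-like cluster 13, 459 ± 436 CPM, ranging from 62.8 to 1065 over its 7 libraries. Phagocyte-like cluster 11 followed with 235 ± 195, and T/NK-like clusters 14 and 15 had 191 ± 46.4 and 195 ± 76.1.

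Summed over the 13 replication genes, cluster 9 had 1723, 1106, 724 and 895 CPM in libraries 1, 2, 5 and 6. Cluster 16 had 3764, 3943 and 7362 CPM in libraries 2, 5 and 6. These ranges did not overlap either, with means of 1112 ± 437 in cluster 9 (n = 4) and 5023 ± 2028 in cluster 16 (n = 3). Cluster 13 came next at 523 ± 594 CPM, with 92.5 in its lowest library and 1727 in its highest. Cluster 3 had 52.0 ± 7.66 and cluster 5 had 46.1 ± 7.94 CPM (n = 7 each).

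The balance between the sets differed between the 2 clusters when all genes were counted. Of the UMIs of the 38 replication and mitosis genes, replication genes took 37.2%, 21.6%, 12.3% and 20.3% in cluster 9 of libraries 1, 2, 5 and 6. In cluster 16 they took 35.0%, 31.3% and 54.9% in libraries 2, 5 and 6. The means were 22.8% ± 10.4 (n = 4) and 40.4% ± 12.7 (n = 3), and library 1 of cluster 9 lay inside the range of cluster 16. Without Hist1h2ap and 2810417H13Rik the shares were 18.2% ± 9.41 in cluster 9 and 15.7% ± 5.24 in cluster 16, which overlap, and the order of the means reverses. In the 14 other clusters, where both sums are low, the mean share lay between 41.3% (cluster 11) and 74.2% (cluster 8).

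**Figure D2:**
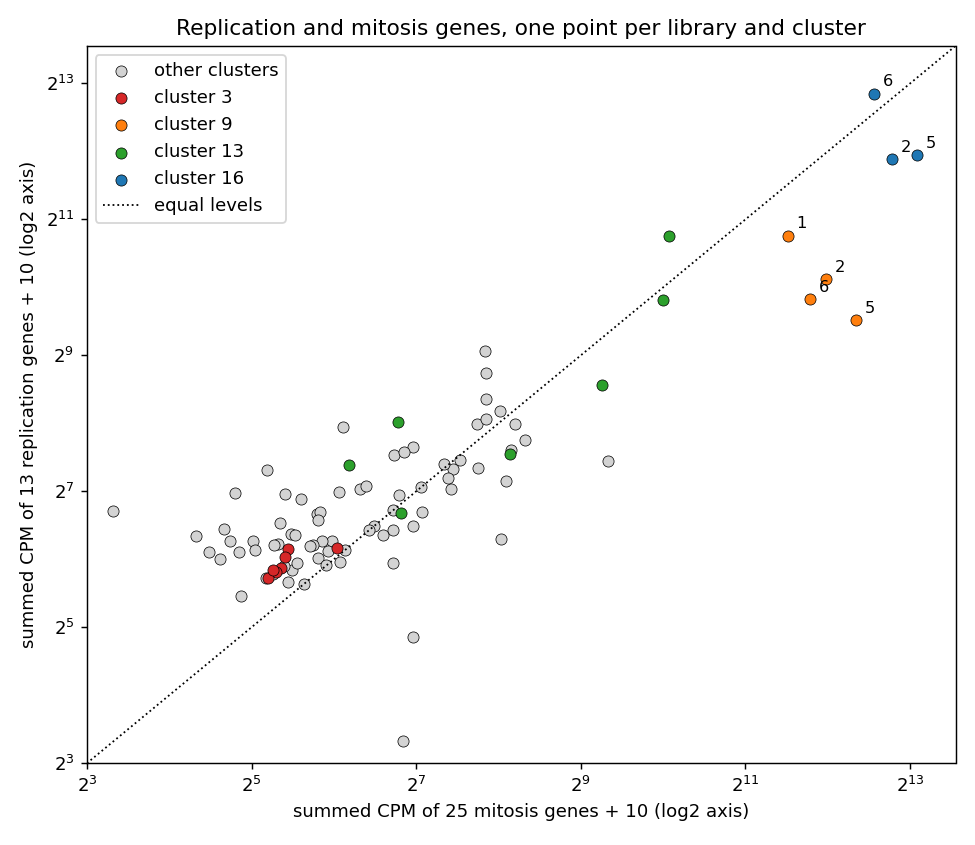
Summed CPM of the 13 replication genes (vertical) against that of the 25 mitosis genes (horizontal), both plus 10 on log2 axes, 1 point per library and cluster with at least 5 cells; numbers beside points name the library. All 4 libraries of cluster 9 (orange) lie below the line of equal levels, and those of cluster 16 (blue) lie on both sides of it, library 6 above.

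Among the replication genes, Hist1h2ap, which encodes a histone H2A packaged onto new DNA, separated the clusters most. It lies at chr13:21833026-21833507 (GRCm38, minus strand, GENCODE vM21), among near-identical histone copies, so its counting is uncertain. It had 56.5, 11.5, 44.96 and 0 CPM in cluster 9 of libraries 1, 2, 5 and 6, and 672, 2187 and 4816 CPM in cluster 16 of libraries 2, 5 and 6. Every library of cluster 16 was above every library of cluster 9, and the 0 in library 6 rests on 17883 UMIs (exact Poisson 95% interval 0 to 206 CPM). Its log2 fold, cluster 9 minus cluster 16, was -5.81 (SE 0.44). Outside these clusters it was highest in cluster 13, at 232 CPM on average.

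2810417H13Rik, which RefSeq names Pclaf and which encodes a partner of the clamp protein PCNA, had 339, 207, 126 and 336 CPM in cluster 9 and 1359, 817 and 1273 CPM in cluster 16, in the same order of libraries. The ranges were apart, and the log2 fold was -2.86 (SE 0.44). Of the helicase genes, Mcm5 had 28.3, 11.5, 30.0 and 55.9 CPM in cluster 9 and 149, 79.0 and 97.9 in cluster 16, again without overlap (log2 fold -2.21, SE 0.63). Mcm7 likewise lay at 0 to 39.7 CPM in cluster 9 and at 79.0 to 149 in cluster 16 (-2.04, SE 0.47). Mcm6 overlapped, with 32.6 to 113 CPM in cluster 9 and 43.9 to 131 in cluster 16. Mcm2, Mcm3 and Mcm4 had at most 57.6 CPM in any library of cluster 9, and Mcm3 reached 134 CPM in library 2 of cluster 16.

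The nucleotide enzymes overlapped between the clusters. Rrm2, the small subunit of ribonucleotide reductase, had 396, 265, 182 and 112 CPM in cluster 9 and 492.9, 281 and 310.2 in cluster 16. Rrm1, the large subunit, had 0 to 141 CPM in cluster 9 and 0 to 149 in cluster 16. Tk1, the thymidine kinase, had 169.5, 184, 107 and 112 CPM in cluster 9 and 134, 79.0 and 131 in cluster 16, and was higher in cluster 9 in libraries 2 and 5. Tyms, which makes thymidylate, lay at 58.2 to 169.5 CPM in cluster 9 and at 114 to 179.6 in cluster 16. The clamp gene Pcna had 283, 138, 36.6 and 112 CPM in cluster 9 and 134, 96.6 and 179.6 in cluster 16, with no consistent order.

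Of the mitosis genes, Ube2c, Cdc20 and Birc5 stood higher in every library of cluster 16 than in any of cluster 9. Ube2c, the E2 enzyme that marks cyclins for destruction, had 84.8, 207, 247 and 55.9 CPM in cluster 9 and 747, 966 and 473 in cluster 16. Cdc20, which activates the same ubiquitin ligase, had 169.5, 138, 154 and 112 against 299, 316 and 343 CPM. For both genes the lowest library of cluster 16 was above the highest of cluster 9, with log2 folds of -2.06 (SE 0.38) and -1.47 (SE 0.47). Their values in library 6 of cluster 9 rest on 1 and 2 UMIs. Birc5 (survivin, of the chromosomal passenger complex) had 198, 357, 339 and 559 CPM in cluster 9 and 657, 931 and 620.3 in cluster 16, also apart. Its partner kinase Aurkb lay at 0 to 67.0 CPM in cluster 9 and at 65.3 to 119 in cluster 16, which overlap.

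The library values of Cenpa, Smc4 and Nusap1 were apart between the clusters and those of Smc2 nearly touched, whereas Top2a, Cenpe, Tpx2 and Bub1 overlapped. Cenpa, the centromeric histone H3, had 56.5, 254, 248 and 112 CPM in cluster 9 and 657, 667 and 457 in cluster 16 (log2 fold -1.78, SE 0.36). Top2a, the topoisomerase that untangles DNA, had 396, 403, 517 and 168 against 553, 825 and 489.7 CPM, where library 5 of cluster 9 lay above library 6 of cluster 16. The condensin subunits Smc2 and Smc4 reached 207 and 249.9 CPM at most in cluster 9 and 209 and 418 at least in cluster 16. Nusap1, a spindle protein, lay at 112 to 274 and 418 to 518 CPM. Cenpe, a kinesin of the kinetochore, had 0, 69.1, 165 and 0 CPM in cluster 9 and 134, 281 and 97.9 in cluster 16. Tpx2, a spindle assembly factor, had 0, 46.1, 135 and 0 against 89.6, 184 and 97.9 CPM. The checkpoint kinase Bub1 lay at 0 to 29.1 CPM in cluster 9 and at 14.9 to 65.3 in cluster 16. The values of 0 are those of libraries 1 and 6 of cluster 9, which hold 9 and 6 cells.

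Of the cyclins, Ccnb1 and Ccna2 did not overlap between the clusters. Ccnb1 lay at 112 to 139 CPM in cluster 9 and at 147 to 344 in cluster 16. Ccna2 lay at 112 to 226 and 254 to 392 CPM, Ccnb2 at 138 to 279.6 and 229 to 583, and Cdk1 at 55.9 to 226 and 179.6 to 284, so that Ccnb2 and Cdk1 overlapped. Among the kinases and checkpoint genes of lower level, Plk1, Bub1b, Kif11 and Aurka each stayed at or under 131 CPM in every library of both clusters.

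A few mitosis genes were not lower in cluster 9. Mki67, which encodes the proliferation antigen Ki-67, had 169.5, 254, 570.4 and 279.6 CPM in cluster 9 and 239, 430.3 and 278 in cluster 16. Cdca3 had 254, 299.6, 333 and 615 CPM against 209, 237 and 212, every library of cluster 9 above every library of cluster 16. Anln, the actin-binding protein anillin of the cleavage furrow, had 56.5, 104, 55.5 and 55.9 against 14.9, 8.78 and 16.3 CPM, but each value of cluster 16 is a single UMI. Cenpf (113, 299.6, 532 and 447 against 358, 422 and 261 CPM) and Hmmr (141 to 242 against 105 to 263) overlapped.

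Within libraries, where the cells of both clusters share a barcode suffix, 9 of 13 replication genes and 17 of 25 mitosis genes were higher in cluster 16 in each of libraries 2, 5 and 6. Mki67, Cdca3 and Anln were higher in cluster 9 in all 3 libraries, as was Lockd. Rrm1 had no UMI in either cluster of library 6. In library 5, which holds most cells of cluster 9, the exact Poisson intervals were apart for 4 of the 11 replication genes and 12 of the 21 mitosis genes that were higher in cluster 16. They were apart for 4 of 10 and 5 of 19 such genes in library 2, and for 2 of 12 and 2 of 18 in library 6. Of the replication and mitosis genes that were higher in cluster 9, none had its intervals apart in any of these 3 libraries, while those of Lockd were apart in each. These intervals cover counting error only. The shares of all genes that were higher in cluster 16, or had their intervals apart, were not counted. Nothing particular to the members is therefore read from these numbers.

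The 2 other genes differed from each other. Stmn1, which encodes stathmin, a protein that destabilises microtubules, had 1865, 1268, 1169.8 and 727 CPM in cluster 9 and 1389, 1466 and 1192 in cluster 16, overlapping. Lockd, a long noncoding RNA at chr6:134929092-134956798 (plus strand), had 509, 726, 1247 and 1454 CPM in cluster 9 and 194, 351 and 359 in cluster 16, without overlap. Its log2 fold was 1.54 (SE 0.39). Together the 2 genes summed to 67.5 ± 27.3 CPM in cluster 3 (n = 7).

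**Figure D3:**
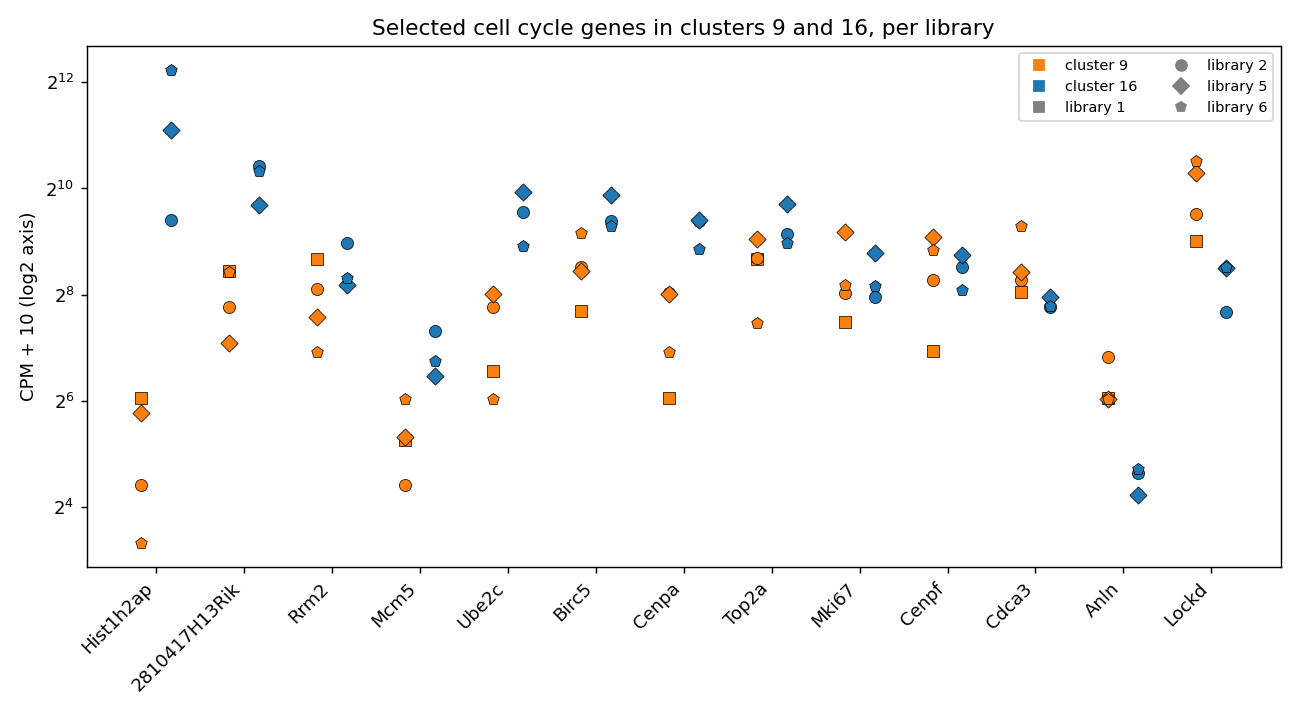
CPM plus 10 (log2 axis) of 13 of the 40 genes in cluster 9 (orange) and cluster 16 (blue), 1 point per library with at least 5 cells, the marker shape naming the library. Hist1h2ap, 2810417H13Rik and Ube2c lie higher in every library of cluster 16, and Cdca3, Anln and Lockd in every library of cluster 9.

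In the edgeR fit over all clusters, 36 of the 40 genes passed the filter on low counts. With cluster 9 minus cluster 16, 2 of them (Anln and Lockd) had an adjusted p under 0.05 and were higher and 14 were lower, while 17% of all 7952 genes tested were higher and 17.3% were lower. The median log2 fold of the 36 genes was -1.01, against 0.23 over all genes. Nothing is read from these counts, since the clusters were set on the same cells. Without library 5 or without library 2 the number called fell from 16 to 9. The calls of 2810417H13Rik, Hist1h2ap, Mcm7, Cenpa, Smc4, Ube2c and Lockd were made with each library left out in turn. With DESeq2, however, the adjusted p was 0.0665 for 2810417H13Rik and 0.132 for Ube2c. Without a term for library, the edgeR adjusted p of Lockd was 0.0773. Hist1h2ap, Mcm7, Cenpa and Smc4 stayed under 0.05 in both of these settings.

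Most cells with several mitosis genes were in clusters 9 and 16, which were set on these same counts, and 111 lay outside them. A cell was counted when it held UMIs of 3 or more different mitosis genes. There were 714 such cells of 43745 (1.63%, Wilson 95% interval 1.52% to 1.76%), of which 561 were in cluster 9 (93.3% of its 601 cells) and 42 in cluster 16 (100%). Outside these clusters there were 111 (0.258%), most often in cluster 13 (12 of 235 cells, 5.11%). No such cell was among the 78 cells of the podocyte-like cluster 2 or the 74 of the neutrophil-like cluster 12, both types not known to divide in adults, which allows shares of up to 3.85% and 4.05%. At least 1 mitosis UMI was present in 11.5% of the podocyte-like and 14.9% of the neutrophil-like cells, at median depths of 2050.0 and 1453.5 UMIs. With each cell thinned to 1000 UMIs, leaving out 2494 shallower cells, the shares were 62.6% in cluster 9 and 81.0% in cluster 16, and 22 cells were left outside.

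Replication genes were counted in the same way. Cluster 9 had 178 cells with 3 or more of them (29.6%) and cluster 16 had 35 (83.3%), or 7.65% and 40.5% after thinning. In cluster 9, 175 cells passed both counts, 386 passed for mitosis genes alone, 3 for replication genes alone and 37 for neither. In cluster 16, 35 cells passed both and 7 passed for mitosis genes alone. The cut of 3 was the same for the 13 replication and the 25 mitosis genes, which also differ in level. The numbers passing for 1 set alone therefore give no phase of the cycle. The median cell held 8 different mitosis genes and 1 replication gene in cluster 9, and 17 and 5 in cluster 16, which is also the deeper cluster. By gene, Hist1h2ap was found in 9.98% of the cells of cluster 9 and 78.6% of cluster 16 (3.83% and 59.5% after thinning), and Lockd in 90.7% and 71.4% (65.6% and 33.3%).

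The 12 cells of cluster 13 carried 78.7% of the mitosis UMIs of their cluster, at a median of 6171.5 UMIs per cell against 1703 in cluster 13 as a whole. In cluster 9 and cluster 16, the counted cells carried 99.3% and 100% of them.

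By library, cells with 3 or more mitosis genes were most frequent in library 5, at 4.32% of its cells, against 0.037% to 0.692% in the other 6 libraries. Among proximal-marker cells the share was 5.82% in library 5 (477 of 8199 cells, interval 5.33% to 6.35%). It was 0.510%, 0.655%, 0%, 0.199%, 0.0983% and 0.0275% in libraries 1, 2, 3, 4, 6 and 7, and the 0 of 560 cells in library 3 allows up to 0.536%. The intervals of library 5 and of each other library were apart. After thinning the share was 3.67% in library 5 and at most 0.301% elsewhere, where median depths before thinning were 3018 UMIs per proximal-marker cell in library 5 and 1746 to 2546 elsewhere. Distal-marker cells had 38 of their 39 counted cells in library 5 (1.52% of 2502 cells). Of all distal-marker cells, 33 lay in cluster 9, and the distal rule ignored proximal markers. In library 5 of cluster 9, proximal markers summed to 5167 CPM and distal markers to 263 CPM. The counted cells are therefore not taken as distal tubule cells.

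Among T/NK-marker cells, counted cells occurred in 6 of the 7 libraries. Their shares were 1.12%, 6.00%, 1.06%, 1.72%, 9.09%, 6.27% and 0% in libraries 1 to 7, or 56 of 1337 cells in all, and the intervals of libraries 2, 5 and 6 overlapped. The 0 of 34 cells in library 7 allows up to 8.82%. The summed mitosis genes of proximal-marker cells were also highest in library 5, at 409.6 CPM against 29.3 to 65.1 in the others. Those of T/NK-marker cells lay between 149 and 1666 CPM and were highest in library 2. Replication genes in proximal-marker cells were 106 CPM in library 5 and 46.1 to 78.2 in the others. The kidney, the capture and the sequencing of library 5 cannot be told apart.

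**Figure D4:**
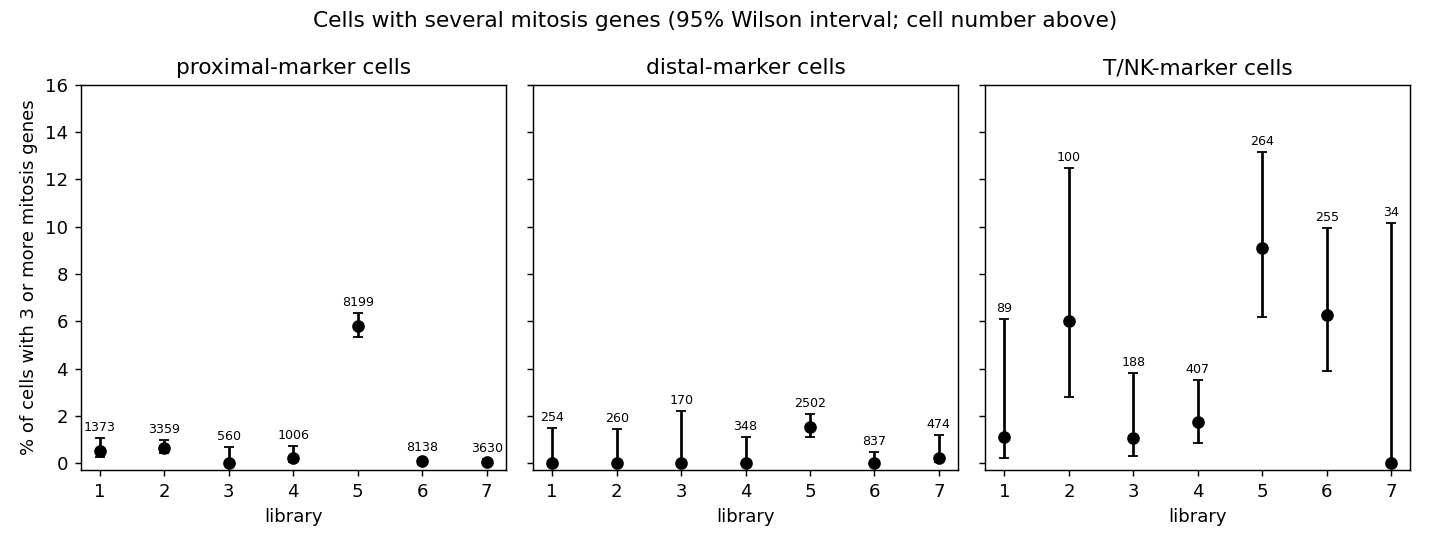
Percent of proximal-marker, distal-marker and T/NK-marker cells that held 3 or more mitosis genes, by library, with Wilson 95% intervals and the number of cells above each. Library 5 stands apart at 5.82% among proximal-marker cells, and 9.09% of its T/NK-marker cells overlap libraries 2 and 6.

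To compare cell types without the authors' clusters, cells were taken by their markers, in which no member took part, and summed per library. In T/NK-marker cells, 25 of the 40 genes passed the low-count filter and 24 of them were higher than in proximal-marker cells (edgeR quasi-likelihood test, adjusted p under 0.05 over 8835 genes), none lower. Of all genes tested, 32.6% were higher and 35.3% lower. The 24 comprised 8 of 9 replication genes, 14 of 14 mitosis genes, Stmn1 and Lockd. The median log2 fold of the 25 was 3.26, against -0.08 for all genes. A gene can pass the filter through the group in which it is high. Without a filter 37 of all 40 genes were higher and none lower. The share of all genes was not counted without a filter, so nothing particular to the members is read from the 37.

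Hist1h2ap in T/NK-marker cells was at 0, 104, 23.5, 39.3, 284, 560.0 and 0 CPM in libraries 1 to 7, and at 0 to 3.79 CPM in proximal-marker cells. Its level was higher in 5 of 7 libraries, with a log2 fold of 7.20 (SE 0.39, edgeR adjusted p = 5.84e-29). 2810417H13Rik was at 120.3, 249.5, 8.53, 41.5, 152, 163 and 0 CPM against 0.955 to 10.3 (log2 fold 5.16, SE 0.37, edgeR adjusted p = 5.24e-21), higher in 6 of 7 libraries. Smc4 was the most even, at 68.8 to 196 CPM against 9.50 to 34.4, without overlap in any library (log2 fold 3.17, SE 0.18, edgeR adjusted p = 1.88e-28). Mcm3 was at 11.5 to 53.7 CPM against 0.288 to 1.79, also without overlap (log2 fold 4.41, SE 0.41).

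Differences were smaller for Mki67, Stmn1, Lockd and Tyms. Mki67 was at 0, 42.2, 0, 14.2, 58.5, 47.5 and 0 CPM in T/NK-marker cells and at 7.07, 6.74, 8.29, 3.82, 42.7, 2.93 and 10.3 in proximal-marker cells, higher in 4 of 7 libraries (log2 fold 1.38, SE 0.40, edgeR adjusted p = 0.0015). Without library 6 its adjusted p was 0.11, and with DESeq2 it was 0.115. Stmn1 was at 168 ± 115 CPM in T/NK-marker and 74.0 ± 34.9 in proximal-marker cells (log2 fold 1.17, SE 0.23), and Lockd had a log2 fold of 1.63 (SE 0.38), with an adjusted p of 0.212 without a term for library. Tyms did not pass (log2 fold 0.66, SE 0.31, edgeR adjusted p = 0.0526).

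**Figure D5:**
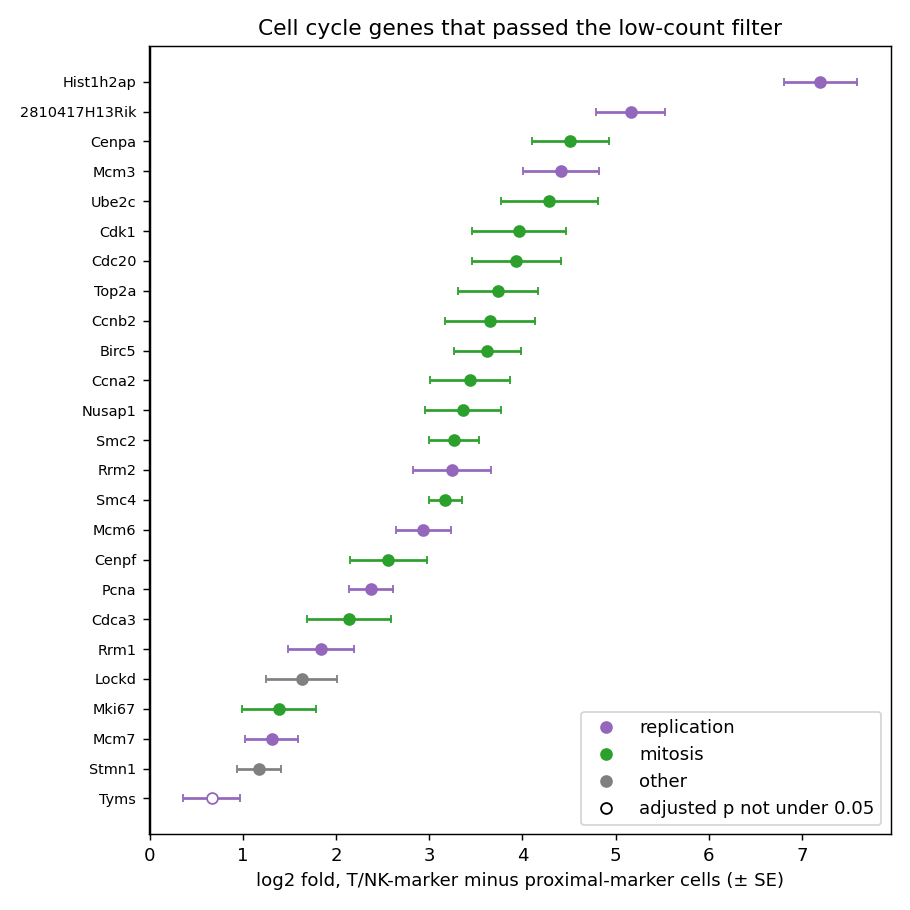
Log2 fold with its SE, T/NK-marker minus proximal-marker cells, for the 25 cell cycle genes that passed the low-count filter, with replication, mitosis and other genes in different colours and an open circle where the adjusted p was not under 0.05. All 25 estimates are above 0, from 0.66 (Tyms) to 7.20 (Hist1h2ap).

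When the cells of clusters 9 and 16 were left out, 14 of the genes passed the filter and 10 were higher in T/NK-marker cells, with none lower, against 31.9% and 35.1% of all genes. They were Hist1h2ap, 2810417H13Rik, Mcm3, Mcm6, Pcna, Rrm1, Cenpa, Smc2, Smc4 and Lockd, among them 6 replication genes. Mki67 (log2 fold 0.74, edgeR adjusted p = 0.2), Ccna2 (0.83, adjusted p = 0.319) and Stmn1 (0.42, adjusted p = 0.116) no longer passed. Both clusters were set on counts that include the members, so leaving them out selects cells by these genes. The counts of this fit are therefore a description.

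Phagocyte-marker, endothelial-marker and distal-marker cells had fewer called genes against proximal-marker cells than T/NK-marker cells had. The remaining classes, B-marker cells among them, were not tested. In B-marker cells, replication genes summed to 763.9 ± 752.8 CPM and mitosis genes to 685.6 ± 684.5 (SD, n = 6). In proximal-marker cells these sums were 62.7 ± 22.7 and 94.3 ± 139.8 CPM (n = 7). In phagocyte-marker cells 5 of 25 genes were higher (Hist1h2ap, 2810417H13Rik, Mcm3, Smc2 and Smc4) and 1 was lower (Nusap1, with few UMIs), against 25.9% and 31.1% of all genes. In endothelial-marker cells 5 were higher (Mcm3, Pcna, Cenpa, Smc2 and Smc4) and Stmn1 was lower, against 27.8% and 26.9%. In distal-marker cells Rrm2 was higher and Stmn1, Hist1h2ap, Mki67 and Smc4 were lower, against 28.8% and 23.4%. In this fit, each of these counts of called genes is a smaller share of the 25 genes than that of all genes. The distal call for Stmn1 (13.9 ± 9.24 against 74.0 ± 34.9 CPM, log2 fold -2.26, SE 0.28, edgeR adjusted p = 3.28e-11) held with each library left out, those for Hist1h2ap and Smc4 were lost without library 5 (adjusted p = 0.257 and 0.143), that for Mki67 without library 2, 3 or 5 (up to 0.384) and that for Rrm2 without library 6 or 7 (up to 0.0683). Among phagocytes, 2810417H13Rik was lost without library 1 or 7 (adjusted p up to 0.766), Mcm3 without library 7 (0.206) and Nusap1 without library 3 or 5 (up to 0.138). Among endothelial cells, Cenpa was lost without library 4 (0.104), Smc2 and Smc4 without library 6 (0.0771 and 0.344) and Stmn1 without library 3 or 4 (up to 0.0846). When the cells of clusters 9 and 16 were left out, 14 genes were tested. Of these, 8 were higher and none lower in phagocyte-marker cells, and 7 were higher and none lower in endothelial-marker cells. In distal-marker cells 1 was higher and 1 lower. The share of all genes was not counted for these classes in that fit. Leaving out cluster 9 removed 518 proximal-marker cells, and that cluster was set on counts that include the members. The change in the comparison group is thus selected by these genes, and nothing is read from the higher numbers.

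Among the regulators of entry into S phase, the D-type cyclins of clusters 9 and 16 differed. Ccnd2, a D-type cyclin of lymphocytes, had no UMI in cluster 9, which allows up to 1.24 CPM, and 291 ± 217 CPM in cluster 16 (n = 3) and 485 ± 118 in cluster 14 (n = 7). Ccnd1, the D-type cyclin of epithelia, had 77.9 ± 43.7 CPM in cluster 9, 183 ± 58.0 in cluster 3, 5.85 ± 10.1 in cluster 16 and 40.4 ± 24.9 in cluster 14. Ccnd3 and Cdk4, their kinase partner, were at 55.9 ± 46.2 and 98.9 ± 49.4 CPM in cluster 9 and at 223 ± 77.2 and 213 ± 77.8 in cluster 16. The transcription factor E2f1 was at 66.0 ± 58.2 CPM in cluster 9 and 19.2 ± 6.22 in cluster 16, and E2f4 at 12.9 ± 16.5 and 63.0 ± 17.2. Of the 21 regulators listed, 12 were tested between T/NK-marker and proximal-marker cells, and 9 were higher and 2 (Ccnd1 and E2f5) lower, against 32.6% and 35.3% of all genes, with a median log2 fold of 1.01.

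Inhibitors of cyclin-dependent kinases were measured in the same clusters. Cdkn2c (p18) was at 179 ± 86.6 CPM in cluster 9, 79.3 ± 32.8 in cluster 16 and 25.3 ± 5.93 in cluster 3. Cdkn2d (p19) was at 82.0 ± 33.6, 206 ± 28.8 and 5.48 ± 0.95 CPM in the same clusters. Btg2, an antiproliferative gene, was at 1.98 ± 3.97 CPM in cluster 9 and 125 ± 94.9 in cluster 16, but also at 153 ± 58.5 in cluster 14. Of the 10 genes of this list, 9 were tested between T/NK-marker and proximal-marker cells, 5 being higher and Ccng1 lower, against 32.6% and 35.3% of all genes.

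Further replication and mitosis genes outside the 40 are named here for the highest levels in cluster 9 or 16. Dut, which removes dUTP, had 147 ± 74.3 CPM in cluster 9, 448 ± 172 in cluster 16 and 25.4 ± 3.96 in cluster 3, and Lig1, which joins Okazaki fragments, had 96.1 ± 111, 165 ± 53.4 and 2.18 ± 1.25. The kinase adaptor Cks1b had 114 ± 21.2 CPM in cluster 9 and 627 ± 37.5 in cluster 16. Pbk, a mitotic kinase, had 241 ± 64.6 and 64.7 ± 15.1 CPM, and Spc25, of the kinetochore, 405 ± 81.1 and 189 ± 36.4, both higher in cluster 9. The 19 further mitosis genes summed to 195 ± 21.5 CPM in cluster 3, 146 ± 47.7 in cluster 14 and 137 ± 82.9 in cluster 15 (n = 7 each), whereas the 25 mitosis genes above were lower in cluster 3 than in clusters 14 and 15. Of the sum in cluster 3, Cks2, a kinase adaptor, made up 153 ± 26.0 CPM. Between T/NK-marker and proximal-marker cells, 5 of the 12 further replication genes were tested and 5 were higher, and 4 of the 19 further mitosis genes were tested, of which 2 were higher (Cks1b and Cdc25b) and Cks2 was lower, against 32.6% and 35.3% of all genes.

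Outside the 40 genes, those whose levels over the 16 clusters were most like the mean of the mitosis genes included Bard1 (Pearson r = 0.993) and Ube2t (0.990). Those most like the replication genes were Cks1b of the further mitosis list (0.987), Clspn (0.982) and Mns1 (0.980). These correlations run over 16 clusters of the same 7 libraries and are given as descriptions.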

How the data were processed

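Single cells of 7 adult mouse kidneys were measured with the 10x Chromium 3′ method, per the labels. Cell Ranger 1.3, STAR and the build mm10 (GRCm38.p4) are named in the submitters' processing notes. The authors deposited 1 matrix of raw UMI counts per gene and cell with their cluster numbers, and the filtering and clustering steps are not given in the sources used here.

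Counts were summed per library and cluster, or per library and marker class, where at least 5 cells were present, and scaled to CPM. A cell entered a marker class with UMIs of at least 2 of its markers (3 for proximal tubule) and at most 1 marker of any other class, the proximal list being ignored for the others. Sums were tested with edgeR 4.0.16 in R 4.3.3 (TMM, filterByExpr, quasi-likelihood F test, terms for class and library, Benjamini-Hochberg over all genes, threshold 0.05). The library is a block because sums with the same number share a barcode suffix. The script was tested on simulated data. Alternatives were DESeq2 1.42.0, its size factors, no filter, at least 20 cells, no library block, compared classes alone, 1 more marker, thinning to 1000 UMIs, each library left out, and, chosen after seeing the data, removal of shared barcodes, of the 6% deepest cells, of the cells of clusters 9 and 16, and of 2 genes from a share. Shares carry Wilson and levels exact Poisson 95% intervals, and a count of 0 a limit of 3 counts, all for counting error only. Depth per library is given with the results. Likeness used log2(CPM + 10) and genes with at least 100 UMIs.

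The members and lists were chosen with earlier results of these data known. All 40 members are named. From each further list up to 6 genes with the highest level in cluster 9 or 16 could be named, and 10 genes most like each set. A gene among those most like the mitosis set is not reported here. E2f5, Ccng1 and Cdc25b were named after their values were seen. Python 3.11.15, numpy 2.4.6, scipy 1.17.1, pandas 2.3.3 and matplotlib 3.10.9 were used.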

Additional observations from a re-analysis of the deposited data

Results flagged for a closer look

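Of 58 sets of library values examined, 12 had a highest library that stood apart from the others by Dixon's criterion at the 95% level. Chance gives this in about 1 in 20 independent sets of normally distributed values. The sets here share cells and some rest on few UMIs, so the 12 cannot be set against that rate. In 8 of the 12 the highest library was library 5. It had 4.32% of its cells with 3 or more mitosis genes (0.0374% to 0.692% in the other libraries) and 3.90% of its cells in cluster 9 (0.0187% to 0.553%). Its summed mitosis CPM was 409.6 in proximal-marker cells (29.3 to 65.1 in the others), 122 in distal-marker cells (18.5 to 35.1) and 357 in endothelial-marker cells (33.5 to 124). By cluster, the same sum was 56.0 in cluster 3 (26.9 to 33.4 in the others), 634 in cluster 11 (39.6 to 264) and 285 in cluster 14 (152 to 205).

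The remaining 4 were in other libraries. In the principal-like cluster 6, library 3 had a mitosis sum of 309.7 CPM (32.4 to 95.5 in the others) and a replication sum of 206 CPM (72.6 to 115), from 18 and 12 UMIs in 15 cells. In cluster 11, library 1 had a replication sum of 419.7 CPM (39.6 to 165), from 42 UMIs. In cluster 2, library 2 had a mitosis sum of 60.3 CPM (45.7 to 46.9), which is 1 UMI in 6 cells.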

How the results depend on the processing

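No called gene changed sign under any alternative in which it was tested. Between T/NK-marker and proximal-marker cells, 24 genes were called. The number was 37 of 40 with no low-count filter, 3 of 3 tested after thinning to 1000 UMIs, 13 of 13 with the compared classes alone, 15 of 15 with 1 more marker required, 10 of 11 without the 6% deepest cells and 10 of 14 without the cells of clusters 9 and 16, settings that change how many genes are tested. Leaving out each library gave 20 to 25. For phagocytes (6 called), it was 1 after thinning and 1 with the compared classes alone, and 5 to 8 with a library left out. For endothelial cells (6 called), it was 2 with no replicate block, 1 after thinning and 2 with the compared classes alone, and 4 to 7 with a library left out. For distal cells (5 called), it was 9 with DESeq2 size factors, 19 with no filter, 12 with at least 20 cells, 1 with no replicate block, 2 after thinning, 2 without clusters 9 and 16 and 2 with DESeq2, and 4 to 8 with a library left out. The causes of these changes were not tested. Outside the main fits, the share of all genes called was counted only for T/NK-marker cells without the cells of clusters 9 and 16. The other numbers are therefore not set against all genes. With no replicate block, T/NK-marker cells had 22 called genes, phagocytes 4 and clusters 9 minus 16 had 11.

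For cluster 9 minus cluster 16 (16 called), it was 5 after thinning, 10 without the 6% deepest cells and 8 with DESeq2, and 9 to 19 with a library left out; at least 20 cells left no sum of cluster 16. Pooling UMIs over libraries gave cluster 9 a mitosis sum of 5090.3 CPM. Thinning gave 47.5% and 10.0% of cells with 3 or more mitosis and replication genes in cluster 9, and 74.3% and 48.5% in cluster 16, as means over libraries. The replication count in cluster 16 was 77.4% without the 6% deepest cells and 89.3% for 2 or more genes, and its replication share was 15.7% without Hist1h2ap and 2810417H13Rik. With a library left out, the mitosis sum was 3481 to 4236 CPM in cluster 9 and 6523 to 7832 in cluster 16, and the replication sum 908 to 1242 and 3853 to 5653 CPM. Cluster 16 rests on 42 cells and 3 libraries, and cluster 9 outside library 5 on 49 cells, which limits both.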
